A study of Mus musculus with 8 samples.

Results

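The genes described here are 40 genes of DNA replication and of the passage from the G1 phase into S phase, chosen by name and grouped by step: 4 that license replication origins, 10 of the replicative helicase, 15 polymerase, fork and ligation genes, 5 of nucleotide supply, 3 of replication-coupled chromatin and 3 G1/S regulators. A gene counted as measured where a probe carrying its current or former symbol had a detection p under 0.01 on at least 1 of the 8 arrays, which held for 33 of the 40 genes, through 40 detected probes. Orc1, Gins2, Pola1 and Dut had a probe that was not detected on any array, and no probe in the table used here was named for Mcm3, Gins1 or Rfc2. Measured were 3 of 4 licensing, 7 of 10 helicase, 13 of 15 polymerase and fork, 4 of 5 nucleotide supply, 3 of 3 chromatin and 3 of 3 regulator genes. All genes with a detected named probe numbered 7456.

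Illumina beadchip arrays measured RNA from splenocytes, the mixed cells of the spleen, of C57BL/6 mice that were wild type (WT), p53-null (p53-/-) or Δ122p53, a genotype whose p53 lacks an N-terminal stretch and which the study describes as resembling the human Δ133p53α isoform. Cells for culture came from the pooled spleens of 4 mice, 5 to 6 weeks old, of a genotype. WT, p53-null and Δ122p53 cells each gave a control array and an array after 5 hours with 1 µg/mL of amsacrine, a topoisomerase II poison that leaves DNA breaks, dissolved in 30% ethanol; p53-null cells also gave a second control array and 1 array after 4 Gy of gamma irradiation. The labels do not say which controls received the ethanol carrier, so amsacrine and its carrier cannot be told apart where the control lacked it, and how long after irradiation the cells were taken is not stated in the labels. The 7 groups therefore hold 1 array each, apart from the 2 p53-null controls, and nothing says that those came from separate cultures, so a p-value reflects no more than the spread among these arrays, and that spread may be technical.

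Replication starts at origins to which the origin recognition complex, Cdc6 and Cdt1 load the MCM helicase in G1, and the helicase is then activated by factors such as Cdc45 and Mcm10. Primase, polymerases delta and epsilon, the sliding clamp Pcna and its loader copy the DNA while ribonucleotide reductase, thymidylate synthase and thymidine kinase provide the nucleotides. Most of these genes are known targets of E2F factors, which cyclin E and its kinase help to set free at the G1/S boundary. The RNA of these genes is low in resting lymphocytes and high in dividing cells. p53 is known to restrain this programme after DNA damage, largely through the kinase inhibitor Cdkn1a.

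Levels are log2 intensities after background correction and quantile normalization. Median raw intensity per array ran from 69.7 to 81.5, and 7710 to 8633 of 24613 probes were detected. Of the 33 measured genes, 32 and 30 were detected on the Δ122p53 amsacrine and control arrays, 29 on the WT control array, 30 and 27 on the p53-null controls, 28 after irradiation, 26 on the p53-null amsacrine array and 21 on the WT amsacrine array. Between the p53-null controls the measured genes differed by a median of 0.23, with 23 of 33 higher on control 2, beside 3595 of all 7456 genes. Only 1, Pcna at 6.40 and 7.48, was at least 2-fold apart, beside 4.29% of all genes in that direction. Neutrophil markers stood further apart on this pair, which gives the group model its spread and the p53-null baseline: all 9 were at least 2-fold higher on control 2, with a median difference of 1.84. Their part in the results that use these controls was not tested. Markers of B cells were detected for 9 of 9 genes on each control array, and those of T cells for 9 of 9 on the WT and p53-null controls and 8 of 9 on the Δ122p53 control array, where Cd4 was not detected. The Δ122p53 arrays stood apart from the other 6 in cell markers: all 13 erythroid (red cell precursor) markers were detected on both, with median levels of 10.3 and 10.3, against 5 to 7 detected and medians of 4.85 to 6.30 elsewhere. Part of this contrast is built in, since Epor, Gata1, Rhag, Trim10, Hemgn and Ermap entered only through the Δ122p53 arrays. At most 7 of the 13 could thus be detected elsewhere. All 11 mitotic genes were also detected on both Δ122p53 arrays, at medians of 9.01 and 9.60, against 5.97 to 7.55 elsewhere. The macrophage genes C1qa, C1qc and Mrc1 were not detected on either Δ122p53 array. In bulk RNA, fewer cells of a type and less RNA per cell cannot be told apart.

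Promoters of 5 of the genes are printed first, since the results below turn on them: Cdc6, Tk1 and Tyms are among the genes most raised on the Δ122p53 arrays, Rfc3 is the single fork gene above all other arrays there, and Pold1 is the one gene that fell with amsacrine across the genotypes. Each runs 5′ to 3′ along the gene's strand from 250 bases before to 50 bases after a RefSeq start (GRCm38.p6), with E2F-type words in capitals. For Cdc6 that start lies inside the RefSeq span of the gene, which begins at 98907709, so the whole window lies downstream of the first base of the span. The Tk1 and Tyms starts also lie inside, but their windows reach past that base. Among the windows counted below, those of Orc1, Dut and E2f1 lie wholly inside the span as well. So do some windows of Uhrf1, Lig1, Mcm7, Fen1 and Pold2, including the Uhrf1 and Lig1 windows that hold a word. The words searched were TTTCCCGC, TTTCGCGC, TTTGGCGC and TTTGCCGC on both strands, counting overlapping words by their start.
Cdc6, chr11:98907901-98908200, plus strand: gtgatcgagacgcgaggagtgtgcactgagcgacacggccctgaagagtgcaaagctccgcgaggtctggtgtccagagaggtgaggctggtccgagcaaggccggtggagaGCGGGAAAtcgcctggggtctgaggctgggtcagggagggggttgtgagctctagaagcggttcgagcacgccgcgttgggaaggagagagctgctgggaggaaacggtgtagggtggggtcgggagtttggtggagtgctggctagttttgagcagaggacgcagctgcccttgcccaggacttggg
Rfc3, chr5:151651159-151651458, minus strand: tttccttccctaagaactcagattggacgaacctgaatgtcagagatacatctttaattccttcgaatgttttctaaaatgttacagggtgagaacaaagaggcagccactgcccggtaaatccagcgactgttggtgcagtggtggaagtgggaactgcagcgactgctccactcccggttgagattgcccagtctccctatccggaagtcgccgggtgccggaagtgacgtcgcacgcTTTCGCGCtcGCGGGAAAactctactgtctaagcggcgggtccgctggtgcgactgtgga
Pold1, chr7:44548766-44549065, minus strand: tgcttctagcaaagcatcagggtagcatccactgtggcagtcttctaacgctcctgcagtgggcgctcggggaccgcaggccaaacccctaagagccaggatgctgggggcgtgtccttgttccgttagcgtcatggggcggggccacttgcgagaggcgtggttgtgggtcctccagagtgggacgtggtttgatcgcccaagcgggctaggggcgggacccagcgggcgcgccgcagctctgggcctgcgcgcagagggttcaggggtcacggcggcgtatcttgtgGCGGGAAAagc
Tk1, chr11:117825965-117826264, minus strand: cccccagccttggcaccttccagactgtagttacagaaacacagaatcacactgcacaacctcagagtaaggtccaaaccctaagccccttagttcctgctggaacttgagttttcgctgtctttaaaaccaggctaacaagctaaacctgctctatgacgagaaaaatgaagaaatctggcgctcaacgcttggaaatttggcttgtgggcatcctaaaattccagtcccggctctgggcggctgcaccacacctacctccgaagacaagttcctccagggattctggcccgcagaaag
Tyms, chr5:30073576-30073875, minus strand: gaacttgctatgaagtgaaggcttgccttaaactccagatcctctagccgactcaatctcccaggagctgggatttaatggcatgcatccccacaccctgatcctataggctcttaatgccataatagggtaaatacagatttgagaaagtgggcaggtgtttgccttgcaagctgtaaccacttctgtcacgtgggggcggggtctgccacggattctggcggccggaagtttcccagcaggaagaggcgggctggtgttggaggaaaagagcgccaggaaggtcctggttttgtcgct
Cdc6 and Pold1 hold 1 such word, Rfc3 holds 2 neighbouring words, and the Tk1 and Tyms windows hold none, which says only that these letters are not in these windows. RefSeq gave 39 promoters for 33 of the 40 genes, and 12 of the 39 (30.77%) held an E2F-type word, against 744 of all 32851 promoters (2.26%). By step these were 3 of 4 licensing, 4 of 8 helicase, 4 of 16 polymerase and fork, 0 of 5 nucleotide supply, 1 of 4 chromatin and 0 of 2 regulator promoters. The CCAAT box was found in 22 of the 39 (56.41%) against 37.41% of all promoters, and in 8 of 8 helicase promoters. A matching word is a description of the sequence and was not tested for binding.

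Mcm10, Cdc45 and Ccne2 were detected on no array outside Δ122p53 and so entered the tested genes only through that genotype, as did 236 of the 7456 genes. A higher value in Δ122p53 cells is built into that choice, so counts of higher genes are read over the other 30 measured genes, beside the 7220 genes detected on an array outside Δ122p53. On both Δ122p53 arrays, 11 of these 30 genes read above all 6 other arrays, beside 9.65% of the 7220. The 11 were Orc6, Cdc6 and Cdt1 of licensing, Rfc3 of the fork, all 4 of nucleotide supply (Rrm1, Rrm2, Tyms and Tk1), Chaf1a and Uhrf1 of chromatin, and Ccne1, a cyclin E gene. Pold2 and Rpa1, 2 of the 33, read below all other arrays, beside 14.9% of all genes. Of 11 mitotic genes 9 read above all other arrays, as did 6 of the 7 erythroid markers detected outside Δ122p53; their part in the result was not tested.

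**Figure D1:**
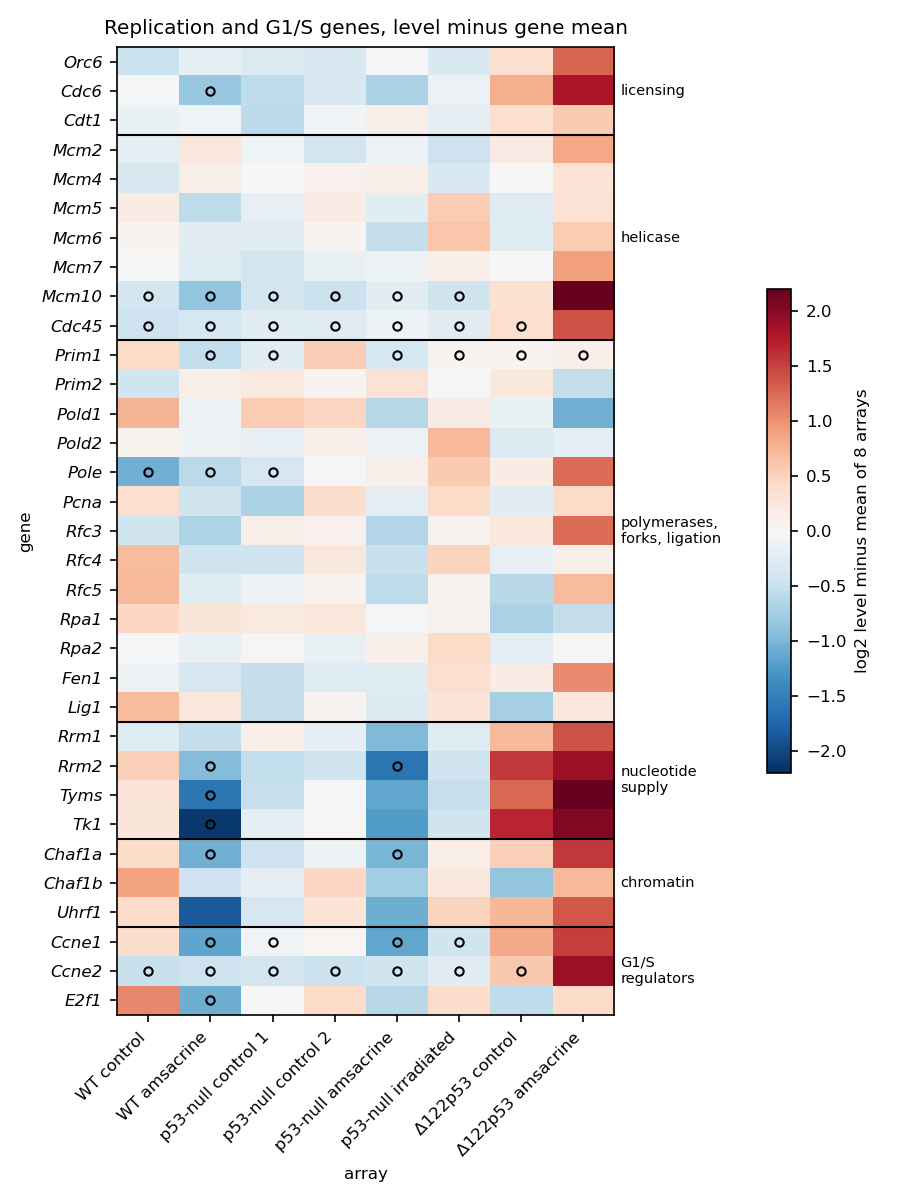
Log2 level of each of the 33 measured genes (rows, by step) on each of the 8 arrays (columns), as the difference from that gene's mean over the arrays (colour, log2), with circles where the gene was not detected. The Δ122p53 amsacrine column is above the gene mean for most genes and the WT amsacrine column is lowest for Tk1, Tyms, Uhrf1 and E2f1.

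To ask how the Δ122p53 genotype differs from WT and from loss of p53, both arrays of a genotype were used in 1 limma model with additive terms for genotype and amsacrine, leaving out the irradiated array. P-values were adjusted over all 7456 genes by Benjamini and Hochberg's method. Against WT, 6 of the 30 genes detected outside Δ122p53 rose past an adjusted p of 0.05, beside 5.71% of such genes, and 2 of the 33 fell, beside 7.62% of all genes. Against p53-null cells, 4 of the 30 rose, beside 3.84%, and 0 of the 33 fell, beside 3.58%. With Cdc45 and Ccne2, which entered only through Δ122p53, the counts of 33 were 8, beside 6.61% of all genes, and with Ccne2 they were 5, beside 4.75%. At an unadjusted p under 0.05 limma gave 12 of the 30 higher in each comparison. Beside this stood 12.2% of the 7220 genes against WT and 8.31% against p53-null. Over all 33, at an unadjusted p under 0.05 limma gave 15 higher and 2 lower in each comparison, beside 13.5% and 18.1% of all genes against WT and 9.54% and 13.2% against p53-null. The median difference of the 30 genes was 0.39 against WT and 0.48 against p53-null, where the medians of the 7220 genes were -0.17 and -0.09. Over all 33 genes it was 0.58 and 0.63, where the medians of all genes were -0.15 and -0.07. Some genes were not detected on any array of 1 side, and for them only a bound is given as at least N-fold, from the brighter side's mean against the dim side's detection floor; with such genes at their bounds the medians of the 33 were 0.36 and 0.40. Differences are given with the standard error of the limma model, and those that include an array without detection are not exact in size.

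Nucleotide supply had the largest median difference of the 6 steps, 2.16 against WT and 2.46 against p53-null, and 3 of its 4 genes rose in each comparison. Tk1 stood at 7.58 on the WT control array and 5.19 on the WT amsacrine array, and at 8.98 and 9.34 on the Δ122p53 control and amsacrine arrays. In p53-null cells Tk1 stood at 7.10 and 7.33 on the controls, 6.08 after amsacrine and 6.87 after irradiation. Thymidine kinase Tk1, which salvages thymidine, was thus highest on the Δ122p53 arrays, lowest on the WT amsacrine array, where it was not detected, and did not overlap between Δ122p53 and the rest. It rose by 2.78 ± 0.57 against WT (limma, adjusted p = 0.0277) and 2.50 ± 0.53 against p53-null (limma, adjusted p = 0.0372). Tyms read 8.42 in Δ122p53 control and 9.38 in Δ122p53 amsacrine cells, against 7.44 and 5.57 in WT control and amsacrine cells. Without p53, Tyms read 6.65 and 7.10 on the control pair, 5.998 with amsacrine and 6.63 with irradiation. Thymidylate synthase Tyms showed the same order, again without detection on the WT amsacrine array, and rose by 2.40 ± 0.61 against WT (limma, adjusted p = 0.0450) and 2.42 ± 0.56 against p53-null (limma, adjusted p = 0.0462). Rrm2 measured 7.26 in WT control cells and 5.79 after amsacrine, then 8.30 in Δ122p53 control and 8.62 in Δ122p53 amsacrine cells. The p53-null Rrm2 levels were 6.20 and 6.31 in controls, 5.14 after amsacrine and 6.31 after irradiation. Rrm2, the inducible small subunit of ribonucleotide reductase, was undetected on both the WT and p53-null amsacrine arrays and rose by 1.93 ± 0.43 against WT (limma, adjusted p = 0.0331) and 2.71 ± 0.40 against p53-null (limma, adjusted p = 0.0109). Rrm1, the large subunit, read 9.80 and 10.49 on the Δ122p53 arrays and 8.12 to 9.23 on the others, and its differences of 1.46 ± 0.41 and 1.45 ± 0.38 missed the threshold (limma, adjusted p = 0.0587 and 0.0642). In these 4 genes the Δ122p53 levels lay above every other array.

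**Figure D2:**
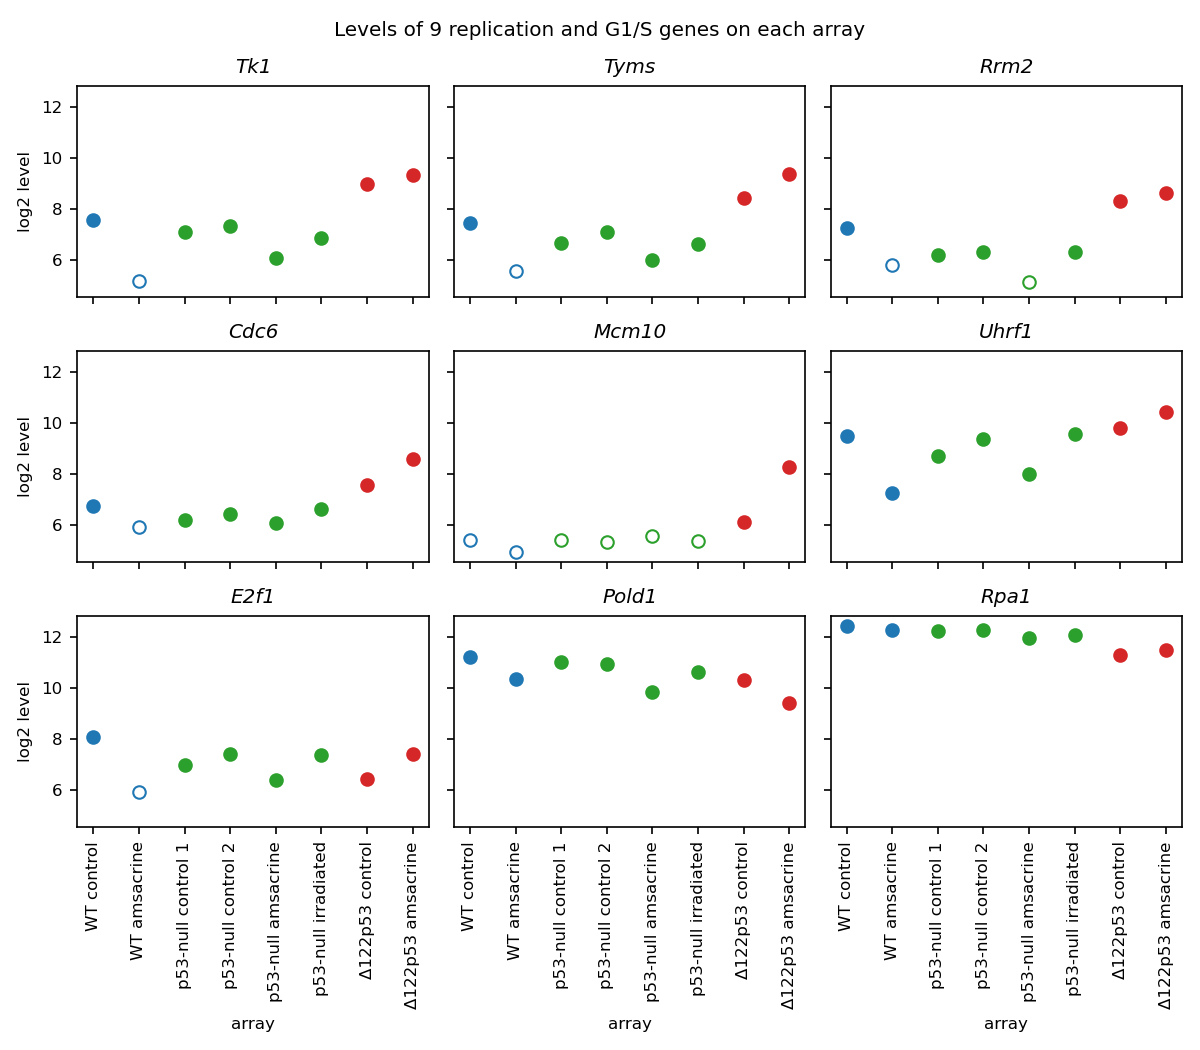
Log2 level (vertical axes, shared) of 9 replication and G1/S genes on each array, 1 point per array and no error bars since groups hold 1 or 2 arrays; blue is WT, green p53-null, red Δ122p53, and open points were not detected. Tk1, Tyms and Rrm2 are highest on the 2 red points and lowest after amsacrine in WT or p53-null cells, while Rpa1 is lowest on the red points.

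Licensing genes were also higher in Δ122p53 cells. Cdc6 read 7.56 in Δ122p53 control and 8.57 in Δ122p53 amsacrine cells, against 6.73 and 5.93 in WT control and amsacrine cells. Without p53, Cdc6 read 6.21 and 6.43 on the control pair, 6.07 with amsacrine and 6.63 with irradiation. Cdc6, the helicase loader, had no detection on the WT amsacrine array, and both Δ122p53 values lay above the rest; it rose by 1.73 ± 0.42 against WT (limma, adjusted p = 0.0419) and 1.84 ± 0.39 against p53-null (limma, adjusted p = 0.0372). Orc6 measured 8.54 in WT control cells and 8.81 after amsacrine, then 9.36 in Δ122p53 control and 10.28 in Δ122p53 amsacrine cells. The p53-null Orc6 levels were 8.70 and 8.68 in controls, 8.998 after amsacrine and 8.68 after irradiation. The origin recognition subunit Orc6 rose by 1.15 ± 0.26 against WT (limma, adjusted p = 0.0349), and its difference of 0.95 ± 0.24 from p53-null missed the threshold (limma, adjusted p = 0.0600). Cdt1 stood at 9.51 on the WT control array and 9.57 on the WT amsacrine array, and at 10.01 and 10.24 on the Δ122p53 control and amsacrine arrays. In p53-null cells Cdt1 stood at 9.08 and 9.61 on the controls, 9.80 after amsacrine and 9.47 after irradiation. Cdt1, the partner of Cdc6 in helicase loading, had both Δ122p53 values above the others, differed by 0.58 from either genotype and did not pass the threshold. The Cdc6 window above, which lies inside the RefSeq span of the gene, holds an E2F-type word. Licensing is the step with the largest share of windows that hold such a word. The Orc1 window, counted in that share, also lies inside the span of its gene.

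In the helicase, 2 activating factors were detected on Δ122p53 arrays alone. Mcm10 measured 5.39 in WT control cells and 4.93 after amsacrine, then 6.12 in Δ122p53 control and 8.27 in Δ122p53 amsacrine cells. The p53-null Mcm10 levels were 5.40 and 5.32 in controls, 5.56 after amsacrine and 5.35 after irradiation. Mcm10, detected on both Δ122p53 arrays, was at least 2.41-fold higher there than in WT and at least 2.48-fold higher than in p53-null cells. Cdc45 read 5.40 in Δ122p53 control and 6.43 in Δ122p53 amsacrine cells, against 4.58 and 4.65 in WT control and amsacrine cells. Without p53, Cdc45 read 4.77 and 4.75 on the control pair, 4.91 with amsacrine and 4.80 with irradiation. Cdc45, which holds the active helicase together, was detected on the Δ122p53 amsacrine array alone, so its place on the Δ122p53 control array is not measured. The Δ122p53 mean of Cdc45 gave no fold above the WT detection floor and at least 1.02-fold over p53-null. These values describe both genes without a test, since the arrays where they are high admitted them. By the probes used, the 5 measured MCM subunits Mcm2, Mcm4, Mcm5, Mcm6 and Mcm7 differed by 0.20 to 0.60 from WT. They differed by 0.04 to 0.66 from p53-null, and 0 of the 5 passed the threshold. By these probes no MCM subunit read above all other arrays on both Δ122p53 arrays. A second Mcm6 probe, detected on all 8 arrays, did so, at 9.13 and 9.97 against 8.35 to 8.94 elsewhere. Mcm2 stood at 8.80 on the WT control array and 9.26 on the WT amsacrine array, and at 9.20 and 9.86 on the Δ122p53 control and amsacrine arrays. In p53-null cells Mcm2 stood at 8.92 and 8.61 on the controls, 8.88 after amsacrine and 8.55 after irradiation. Mcm4 measured 10.52 in WT control cells and 11.01 after amsacrine, then 10.89 in Δ122p53 control and 11.18 in Δ122p53 amsacrine cells. The p53-null Mcm4 levels were 10.87 and 10.97 in controls, 11.01 after amsacrine and 10.54 after irradiation. By the probes used, Mcm5, Mcm6 and Mcm7 spanned 9.85 to 10.96, 8.99 to 10.13 and 8.98 to 10.30 over the 8 arrays. By the same probes Mcm5 and Mcm6 were highest after irradiation of p53-null cells, while the second Mcm6 probe was highest on the Δ122p53 amsacrine array. The Δ122p53 control values of Mcm2 and Mcm4 lay within the range of the other arrays, while their Δ122p53 amsacrine values were the highest.

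Polymerase and fork genes moved both ways. Pold1 stood at 11.20 on the WT control array and 10.35 on the WT amsacrine array, and at 10.30 and 9.41 on the Δ122p53 control and amsacrine arrays. In p53-null cells Pold1 stood at 11.01 and 10.92 on the controls, 9.83 after amsacrine and 10.63 after irradiation. Pold1, the catalytic subunit of polymerase delta, had its lowest value on the Δ122p53 amsacrine array and fell by 0.92 ± 0.23 against WT (limma, adjusted p = 0.0440), while -0.57 ± 0.21 against p53-null missed the threshold (limma, adjusted p = 0.170). Rpa1 measured 12.45 in WT control cells and 12.26 after amsacrine, then 11.31 in Δ122p53 control and 11.48 in Δ122p53 amsacrine cells. The p53-null Rpa1 levels were 12.22 and 12.26 in controls, 11.95 after amsacrine and 12.08 after irradiation. Rpa1, the large subunit of the single-stranded DNA binding protein, was lowest on both Δ122p53 arrays and fell by 0.96 ± 0.24 against WT (limma, adjusted p = 0.0440), with -0.73 ± 0.22 against p53-null (limma, adjusted p = 0.0994). Pole read 6.03 in Δ122p53 control and 7.10 in Δ122p53 amsacrine cells, against 4.80 and 5.27 in WT control and amsacrine cells. Without p53, Pole read 5.50 and 5.82 on the control pair, 5.98 with amsacrine and 6.45 with irradiation. Pole, the catalytic subunit of polymerase epsilon, was not detected on either WT array and was at least 1.55-fold higher in Δ122p53 than in WT (limma, adjusted p = 0.0213); against p53-null, where the irradiated array lay above the Δ122p53 control, it differed by 0.70 ± 0.26 (limma, adjusted p = 0.173). Rfc3, a clamp loader subunit whose promoter above holds 2 E2F-type words, read 7.05 and 8.06 on the Δ122p53 arrays and 6.14 to 6.95 elsewhere, a difference of 1.30 ± 0.42 from WT (limma, adjusted p = 0.0889). The other clamp loader subunits did not share that order: Rfc4 differed from WT by -0.16 and Rfc5 by -0.18. Fen1, which trims Okazaki fragments, read 10.62 and 11.48 on the Δ122p53 arrays, and its irradiated p53-null value of 10.82 lay between them. Lig1 measured 8.58 in WT control cells and 8.13 after amsacrine, then 7.15 in Δ122p53 control and 8.13 in Δ122p53 amsacrine cells. The p53-null Lig1 levels were 7.35 and 7.94 in controls, 7.59 after amsacrine and 8.16 after irradiation. Lig1, which seals those fragments, differed by -0.71 ± 0.39 from WT and -0.01 from p53-null, and neither passed the threshold. The primase subunit Prim2 differed by -0.34 ± 0.32 from p53-null. Pcna, the sliding clamp, read 6.84 and 7.51 on the Δ122p53 control and amsacrine arrays, the second being the highest of the 8 by a narrow margin, beside 6.40 to 7.51 on the others. Rpa2 read 7.73 and 7.95, the first being the lowest of the 8, beside 7.77 to 8.35 on the others. Prim1, the catalytic primase subunit, was detected on the WT control array and p53-null control 2 alone. Of the 13 genes of this step, 7 were higher and 6 lower than in WT, where 41.6% of all genes were higher. The median difference of the step was 0.01.

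Among chromatin genes and regulators, Uhrf1 read 9.81 in Δ122p53 control and 10.45 in Δ122p53 amsacrine cells, against 9.48 and 7.24 in WT control and amsacrine cells. Without p53, Uhrf1 read 8.72 and 9.38 on the control pair, 8.01 with amsacrine and 9.56 with irradiation. Uhrf1, which guides maintenance DNA methylation to new strands, had Δ122p53 values above all others, and its difference of 1.77 ± 0.62 from WT missed the threshold (limma, adjusted p = 0.105). Ccne2 measured 4.55 in WT control cells and 4.59 after amsacrine, then 5.64 in Δ122p53 control and 6.93 in Δ122p53 amsacrine cells. The p53-null Ccne2 levels were 4.63 and 4.58 in controls, 4.61 after amsacrine and 4.81 after irradiation. Ccne2, a cyclin E gene, was detected on the Δ122p53 amsacrine array alone. Its Δ122p53 mean was at least 1.28-fold above WT and at least 1.32-fold above p53-null, a description without a test, since that array admitted it. Ccne1 stood at 6.34 on the WT control array and 4.78 on the WT amsacrine array, and at 6.78 and 7.46 on the Δ122p53 control and amsacrine arrays. In p53-null cells Ccne1 stood at 5.88 and 5.99 on the controls, 4.81 after amsacrine and 5.51 after irradiation. Ccne1, the other cyclin E gene, differed by 1.56 ± 0.51 from WT and 1.68 ± 0.47 from p53-null (limma, adjusted p = 0.0886 and 0.0795). E2f1 read 6.44 in Δ122p53 control and 7.39 in Δ122p53 amsacrine cells, against 8.06 and 5.92 in WT control and amsacrine cells. Without p53, E2f1 read 6.98 and 7.39 on the control pair, 6.38 with amsacrine and 7.37 with irradiation. E2f1, an activating E2F factor, had its highest value on the WT control array and overlapped between all genotypes, and Δ122p53 differed from WT by -0.07 ± 0.64. Chaf1b measured 7.89 in WT control cells and 6.55 after amsacrine, then 6.13 in Δ122p53 control and 7.72 in Δ122p53 amsacrine cells. The p53-null Chaf1b levels were 6.80 and 7.46 in controls, 6.24 after amsacrine and 7.24 after irradiation. Chaf1b, a subunit of the chromatin assembly factor that loads histones behind the fork, had its lowest value of all on the Δ122p53 control array, while its partner Chaf1a read 7.44 and 8.47 on the Δ122p53 arrays and 5.86 to 7.33 elsewhere.

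These genotype calls rest on few arrays. Of the 33 genes, 10 were called against WT in either direction, Cdc45 and Ccne2 included. With 1 array left out at a time, that count was 0 without the p53-null amsacrine array, where 406 of the 7456 genes were called. It was 1 (Pole) without p53-null control 1 and 3 (Pole, Tk1 and Ccne2) without control 2. Over all genes, 636 and 740 were called there. Without either WT array, which leaves 1 WT array, every call among the 33 was lost, and calls over all genes also fell. Without the Δ122p53 amsacrine array, which leaves 1 array of that genotype, Rpa1 differed by -1.17 and Chaf1b, which was not among the 10, by -1.63. The count of the 33 then lost all its higher calls, while the calls over all genes stayed near their number with all arrays. Without the Δ122p53 control array it was 14, all higher, beside 5.85% of all genes, with Mcm10, Cdc45 and Ccne2 among them. The 5 called against p53-null became 0 without the p53-null amsacrine array, where 71 of the 7456 genes were called. They became 1, Rrm2, without either p53-null control, where 234 and 302 genes were called. Without the Δ122p53 amsacrine array, Rrm2 differed by 1.99 and the count against p53-null lost all its other calls. Without the Δ122p53 control array that count was 14, all higher, beside 4.96%, again with those 3 genes among them. Marker lists moved in the same comparisons: limma called 5 and 6 of the 7 erythroid markers detected outside Δ122p53 higher against WT and p53-null, and 9 and 8 of 11 mitotic genes. It called 7 and 6 of 9 T cell genes and 5 and 6 of 8 macrophage genes lower. B cell markers gave 0 of 9 called in either comparison. Whether the replication genes differ within a cell type or through the makeup of the cells was not tested.

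**Figure D3:**
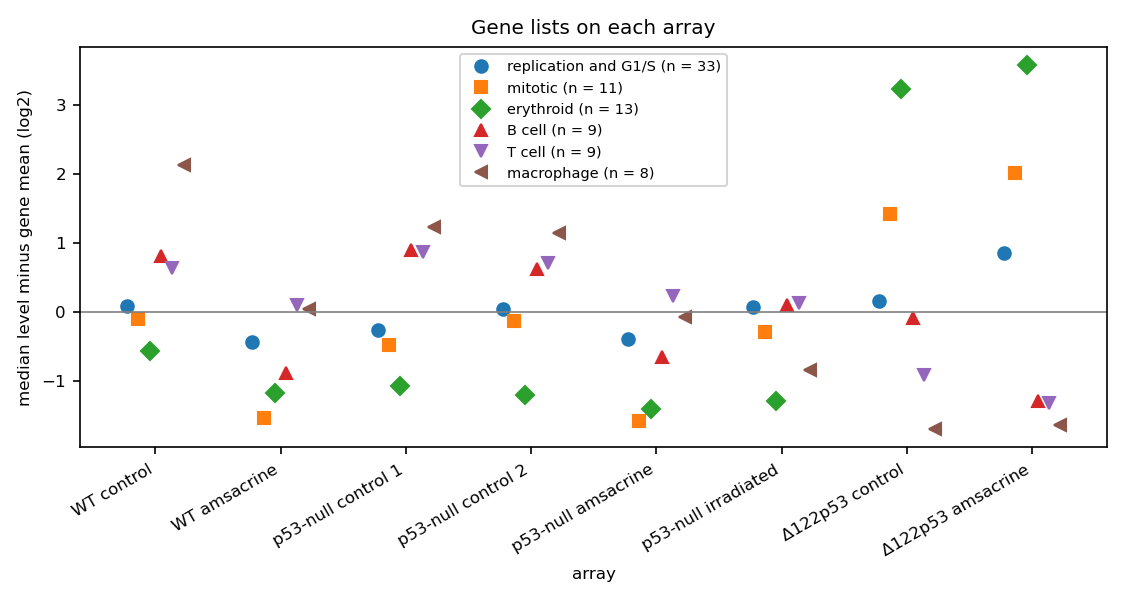
Median over each gene list of the log2 level minus the gene's mean over the 8 arrays (vertical axis), for each array (horizontal axis); each point is 1 list on 1 array, and n is the number of measured genes. The erythroid list stands above 3 and the mitotic list above 1 on both Δ122p53 arrays, while the replication and G1/S genes reach 0.86 on the Δ122p53 amsacrine array and 0.16 on its control. Of the 13 erythroid genes, 7 were detected outside Δ122p53, and the others entered only through that genotype, as did Mcm10, Cdc45 and Ccne2.

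Between p53-null and WT cells, 0 of the 33 genes passed the threshold in the same limma model, beside 0% of all genes, and 1, Pole, had an unadjusted p under 0.05, beside 10.4% of all genes in either direction. The median difference was -0.06 against -0.07 over all genes. Pole (limma, adjusted p = 0.471) was not detected on either WT array, and its p53-null mean gave no fold above the WT detection floor. The widest differences the other way were -0.78 ± 0.40 for Rrm2, -0.71 ± 0.36 for Lig1 and -0.45 ± 0.48 for Rfc5, and the widest higher with detection on both sides were Rfc3 at 0.41 and Prim2 at 0.36.

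In WT cells, amsacrine was compared with the control array in a limma model that fits 1 mean per group, whose spread comes from the p53-null control pair. None of the 33 genes passed the threshold, beside 0% of all genes; the smallest adjusted p was 0.0895, and 9 had an unadjusted p under 0.05, all lower, beside 10.8% of all genes in that direction. The fitted difference of 9 was at least 2-fold lower, beside 12.2%. At any size 25 of 33 were lower, where 52.6% of all genes were higher. The median was -0.45 against 0.05 over all genes. With undetected genes at their bounds the median was -0.26. The Tk1, Tyms and E2f1 values above show detection on the WT control array and none after amsacrine, so these were at least 2.88-fold, 2.62-fold and 4.02-fold lower (limma, adjusted p = 0.0895, 0.117 and 0.100). Rrm2, Chaf1a, Cdc6, Ccne1 and Prim1 were likewise undetected after amsacrine, at least 2.32-fold, 2.43-fold, 1.60-fold, 1.22-fold and 1.03-fold lower. Uhrf1, detected on both arrays, differed by -2.24 ± 0.47 (limma, adjusted p = 0.105) and Chaf1b by -1.34 ± 0.47. By step and with undetected genes at their bounds, the median response was -1.30 for nucleotide supply, -1.34 for chromatin, -0.29 for the regulators, -0.24 for polymerases and forks, 0 for the helicase and 0.06 for licensing. The genes that differed most in the other direction were Prim2, a primase subunit, at 0.57 ± 0.38, Mcm4 at 0.49 ± 0.38 and Mcm2 at 0.46 ± 0.40. Prim2 stood at 5.92 on the WT control array and 6.49 on the WT amsacrine array, and at 6.60 and 5.84 on the Δ122p53 control and amsacrine arrays. In p53-null cells Prim2 stood at 6.58 and 6.42 on the controls, 6.69 after amsacrine and 6.37 after irradiation. The WT control value of Prim2 was thus among its 2 lowest, beside the Δ122p53 amsacrine array. Macrophage genes had a median response of -2.01 in the same comparison, B cell markers of -1.39, mitotic genes of -1.32, T cell genes of -0.54, erythroid genes of -0.46, neutrophil genes of -0.43 and NK cell genes of 0.07; their part in the result was not tested.

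In p53-null cells, too, nucleotide supply and chromatin had the lowest medians. Of the 33 genes, 0 passed the threshold, beside 0.134% of all genes; 6 had an unadjusted p under 0.05, all lower, beside 9.91%, and the fitted difference of 5 was at least 2-fold lower, beside 8.41%. The median was -0.25, or -0.09 with undetected genes at their bounds, against 0.02 over all genes. Tk1 differed by -1.14 ± 0.34 (limma, adjusted p = 0.181), Pold1 by -1.13 ± 0.33 (limma, adjusted p = 0.175) and Uhrf1 by -1.04 ± 0.40 (limma, adjusted p = 0.273). Rrm2 was at least 1.24-fold and Chaf1a at least 1.61-fold lower, both undetected after amsacrine. Ccne1, undetected after amsacrine and on 1 of the 2 controls, had no fold above the detection floor. With undetected genes at their bounds, nucleotide supply had a median response of -0.90 with 4 of 4 genes lower, and chromatin of -0.89 with 3 of 3 lower, against 0 for the helicase and 0.31 for licensing. Cdt1, Pole and Orc6 lay highest, at 0.46, 0.32 and 0.31. B cell markers had a median of -1.41, macrophage genes of -1.28, mitotic genes of -1.25, neutrophil genes of -1.18, T cell genes of -0.63, NK cell genes of -0.48 and erythroid genes of -0.14; their part was not tested.

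In Δ122p53 cells, 28 of the 30 genes detected outside Δ122p53 were higher after amsacrine than on the control array, beside 50.4% of all genes. The median of the 30 was 0.68, against -0.0037 over the 7220 genes detected outside Δ122p53. By limma 0 passed the threshold, beside 0% of all genes, with a smallest adjusted p of 0.500; 6 of the 30 had an unadjusted p under 0.05, all higher, beside 2.45% of the 7220, and 6 were at least 2-fold higher, beside 2.77%. With Mcm10, Cdc45 and Ccne2 these were 9 of 33, beside 3.14%, and 9, beside 3.38%. Mcm10, whose values stand above, differed by 2.15. Chaf1b differed by 1.59 ± 0.47 and Rfc5, a clamp loader subunit, by 1.31 ± 0.38 (both limma, adjusted p = 0.588). Rfc5 read 7.17 in Δ122p53 control and 8.48 in Δ122p53 amsacrine cells, against 8.50 and 7.51 in WT control and amsacrine cells. Without p53, Rfc5 read 7.66 and 7.86 on the control pair, 7.22 with amsacrine and 7.86 with irradiation. The Δ122p53 control value of Rfc5 was the lowest of the 8 and its amsacrine value all but equal to the WT control, so for this gene and for Chaf1b the response starts from a low control. Cdc45 was at least 1.38-fold and Ccne2 at least 1.95-fold higher, since neither was detected on the control array. With undetected genes at their bounds, the medians by step were 1.03 for chromatin, 0.95 for the regulators, 0.92 for licensing, 0.67 for the helicase, 0.53 for nucleotide supply and 0.28 for polymerases and forks. Pold1, at -0.90 ± 0.38, and Prim2, at -0.76 ± 0.38, were the 2 genes lower. Mitotic genes had a median of 0.65 here, macrophage genes of 0.18, NK cell genes of -0.02, neutrophil genes of -0.20, T cell genes of -0.58 and B cell markers of -1.37. Erythroid genes had a median of -0.09 over the 7 detected outside Δ122p53 and of 0.21 over all 13. The part of these lists was not tested. With 1 array a side the response has no replicate of its own.

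**Figure D4:**
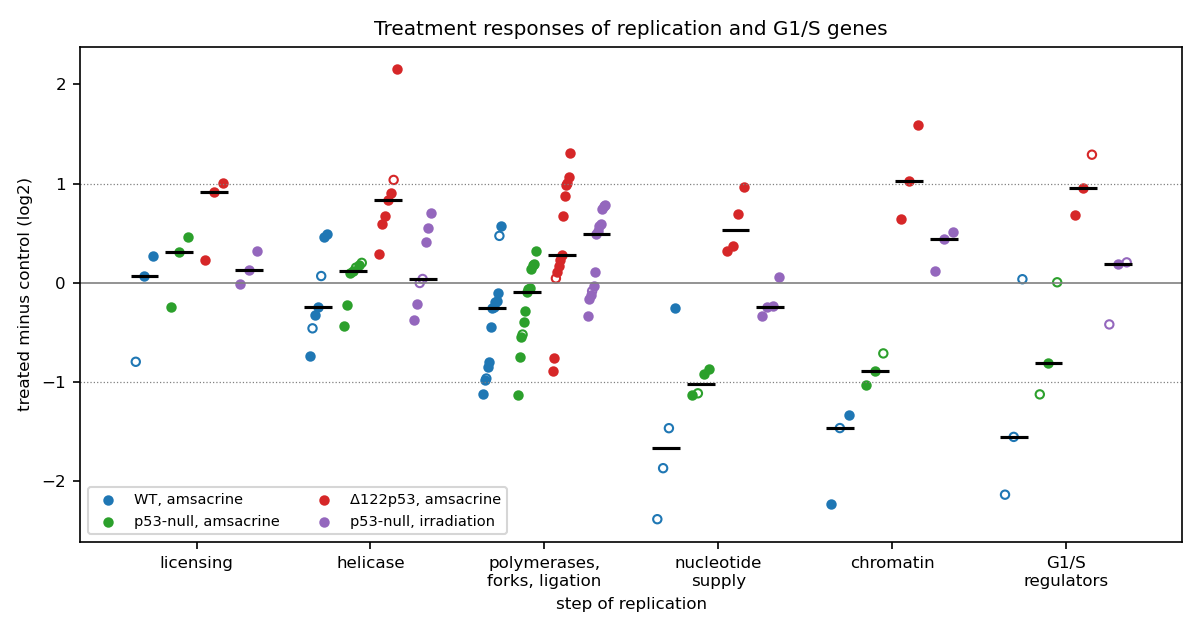
Treated minus control log2 level (vertical axis) of each measured gene by step (horizontal axis), for amsacrine in WT, p53-null and Δ122p53 cells and for irradiation in p53-null cells; open points had a side without detection on any array, bars are medians of the fitted differences and dotted lines mark 2-fold. The nucleotide supply, chromatin and regulator medians lie between -0.81 and -1.67 after amsacrine in WT and p53-null cells and between 0.53 and 1.03 in Δ122p53 cells.

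The difference between 2 responses was tested in the same limma model. Between Δ122p53 and WT, 0 of 33 passed the threshold, beside 0% of all genes, with a smallest adjusted p of 0.332; 10 of the 30 genes detected outside Δ122p53 had an unadjusted p under 0.05 in the higher direction, beside 5.93% of the 7220, and 1 of the 33, Prim2, in the lower, beside 4.71%. The fitted response of 19 of the 30 was at least 2-fold higher in Δ122p53, beside 12.9%, with a median of 1.20 against -0.06 over the 7220. Over all 33 these were 11, beside 6.08%, and 21, beside 13.3%. E2f1 had the widest gap at 3.09 ± 0.58, followed by Chaf1b at 2.92 ± 0.66, Uhrf1 at 2.88 ± 0.66, Tyms at 2.84 ± 0.59 and Tk1 at 2.76 ± 0.55 (each limma, adjusted p = 0.332); the sizes for E2f1, Tyms and Tk1 rest on a WT amsacrine array without detection and are not exact. Between Δ122p53 and p53-null, 0 passed, beside 0%, 11 of the 30 had an unadjusted p under 0.05, all higher, beside 4.74% of the 7220, and their median was 0.78; over all 33 these were 13, beside 5%, with a smallest adjusted p of 0.484. Macrophage genes differed in response by a median of 2.24 between Δ122p53 and WT, with 6 of 8 higher at an unadjusted p under 0.05, and by 1.58 between Δ122p53 and p53-null, also with 6 of 8. Mitotic genes gave 2.06 with 10 of 11 and 1.79 with 9 of 11, and B cell markers 0.36 with 1 of 9 and 0.26 with 1 of 9. The 7 erythroid genes detected outside Δ122p53 gave 0.24 with 3 of 7 and -0.26 with 2 of 7. Over all 13 erythroid genes the medians were 0.56 and 0.45, a description only, since the others entered through the Δ122p53 arrays. Neutrophil genes gave 0.13 and 0.75 with 0 of 9 in each, NK cell genes -0.03 and 0.58, and T cell genes -0.26 and -0.04. The part of these lists was not tested. Between WT and p53-null, 0 passed, beside 0%, and 0 had an unadjusted p under 0.05, beside 1.52%; 4 genes (E2f1, Tk1, Uhrf1 and Tyms) were at least 2-fold lower in WT, beside 3.57%, with E2f1 the widest at a fitted -1.33 ± 0.54, 3 of the 4 again without detection on the WT amsacrine array. These 3 differences share arrays, so they are not independent of each other.

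In p53-null cells, 4 Gy of irradiation was set against the 2 controls. By limma 0 of 33 passed the threshold, beside 0% of all genes, and 0 had an unadjusted p under 0.05, beside 13.9%; the smallest adjusted p was 0.382. By the probe used for each gene, the median was 0.11 against 0.04 over all genes. Of the 33 genes 20 were higher, beside 53.7% of all genes, and 0 differed by 2-fold. Second probes of Mcm7 and Rpa2 differed by 1.46 and 1.255, against 0.41 and 0.49 for the probes used. The p53-null controls were far apart on both of these second probes. For Mcm7 the controls read 6.56 and 7.92, with 8.71 after irradiation. For Rpa2 they read 5.60 and 7.14, with 7.62 after irradiation. Second probes of Lig1, Mcm6, Rrm2, Tk1 and Tyms ran from -0.85 to 0.29. Fen1, whose control values were 9.93 and 10.16, read 10.82 after irradiation, a difference of 0.78 ± 0.34 (limma, adjusted p = 0.382), and Pole lay at 0.79 ± 0.34. Pold2 stood at 9.07 on the WT control array and 8.87 on the WT amsacrine array, and at 8.68 and 8.78 on the Δ122p53 control and amsacrine arrays. In p53-null cells Pold2 stood at 8.81 and 9.10 on the controls, 8.86 after amsacrine and 9.70 after irradiation. Pold2, the accessory subunit of polymerase delta, had its highest value of all on the irradiated array, at 0.74 ± 0.34 from the controls (limma, adjusted p = 0.394). The fork step as a whole had a median of 0.49, and nucleotide supply one of -0.24, with Tk1 at -0.34 and Tyms at -0.24. Macrophage genes had a median of -2.06, NK cell genes of -1.19, B cell markers of -0.85, T cell genes of -0.74, erythroid genes of -0.11, mitotic genes of 0.08 and neutrophil genes of 0.52; their part was not tested.

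Set directly against amsacrine in the same genotype, irradiation left 26 of 33 genes higher, beside 53.7% of all genes. The median was 0.63 against 0.05 over all genes. By limma 0 passed the threshold, beside 0% of all genes; 4 had an unadjusted p under 0.05, all higher, beside 5.87%, and the fitted difference of 5 was at least 2-fold higher, beside 6.89%. Uhrf1 differed by 1.55 ± 0.47 and Mcm6, by the probe used, by 1.14 ± 0.40. Rrm2 and Chaf1a, undetected after amsacrine, were at least 1.28-fold and at least 2.17-fold higher (these 4 limma, adjusted p from 0.440 to 0.445). The second Mcm6 probe read 8.94 after irradiation and 8.88 after amsacrine. With undetected genes at their bounds, the 3 chromatin genes had a median of 1.12 and the licensing genes of -0.32. The neutrophil, mitotic and B cell lists lay further in the higher direction than the 33 genes in this comparison. Neutrophil genes had a median of 1.59, with 9 of 9 higher and 8 at least 2-fold, mitotic genes of 1.24, with 8 of 11 higher at an unadjusted p under 0.05, and B cell markers of 0.88. Erythroid genes had 0.05, T cell genes -0.12, NK cell genes -0.69 and macrophage genes -0.72; their part was not tested. Doses of the agents are on different scales, and the time after irradiation is not given, so the comparison is between these conditions as applied.

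The amsacrine effect shared by the 3 genotypes, from the additive model, passed the threshold for 1 of the 33 genes, beside 1.66% of all genes in the lower direction, and for 0 in the higher, beside 0.402%. That gene was Pold1, which fell by 0.98 ± 0.18 (limma, adjusted p = 0.0491), and it was lower on the amsacrine array in each of the 3 genotypes, by 0.85 in WT, by 1.13 in p53-null and by 0.90 in Δ122p53 cells. The call was lost without either WT array, either p53-null control or the p53-null amsacrine array (limma, adjusted p from 0.124 to 0.452), at differences of -0.88 to -1.03. Tk1 differed by -1.06 ± 0.44 (limma, adjusted p = 0.199), and the 33 genes had a median of -0.06 against 0.04. Without both Δ122p53 arrays, an alternative chosen after seeing the data, 9 genes passed, all lower, beside 9.67% of all genes: Tk1 at -1.67, Uhrf1 at -1.55, E2f1 at -1.38, Tyms at -1.30, Chaf1b at -1.08 and Pold1 at -1.02, together with Ccne1, Rrm2 and Chaf1a, which were not detected on either remaining amsacrine array and have no exact size. The median was -0.39, and leaving out either Δ122p53 array alone gives the same values. Tk1, E2f1 and Tyms were not detected after amsacrine in WT cells, so their sizes are not exact either.

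The p53 readouts differed by genotype in the same arrays. Phlda3, a p53 target, was detected on the WT amsacrine array alone, where it was at least 12.0-fold above the WT control (limma, adjusted p = 0.0669). Mdm2, the p53 ubiquitin ligase, differed by 2.22 ± 0.38 in WT (limma, adjusted p = 0.0895), by 0.36 in p53-null and by 0.05 in Δ122p53 cells. Cdkn1a, which blocks cyclin E kinase, differed by 3.07 ± 1.31 in WT, 1.77 in p53-null and 0.60 in Δ122p53, with a wide error because it read 4.97 (not detected) and 7.98 on the p53-null control pair. No probe for Trp53 was used here, so the genotype labels were not checked on that gene.

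A wider list held 61 other genes of replication and cell cycle entry, of which 40 were measured. All 40 were detected outside Δ122p53. Against WT, 10 rose in Δ122p53 cells, beside 5.71% of the 7220 genes detected outside Δ122p53, and 1 fell, beside 7.62% of all genes. Against p53-null 4 rose, beside 3.84% of the 7220, and 0 fell, beside 3.58% of all genes. E2f2 measured 9.999 in WT control cells and 8.49 after amsacrine, then 12.01 in Δ122p53 control and 11.92 in Δ122p53 amsacrine cells. The p53-null E2f2 levels were 10.26 and 10.20 in controls, 8.55 after amsacrine and 9.40 after irradiation. E2f2, an E2F factor, rose by 2.72 ± 0.41 against WT (limma, adjusted p = 0.0125) and 2.49 ± 0.38 against p53-null (limma, adjusted p = 0.0128) while E2f1, above, differed by -0.07 and 0.11. The histone chaperone Asf1b rose by 2.55 and 2.22, Rbl1, a relative of the retinoblastoma protein, by 1.58 and 1.09, and Ticrr, which helps start replication, by 1.08 and 1.05. Called against WT alone were the checkpoint mediator Clspn at 2.32, the deoxynucleoside kinase Dck at 1.66, the retinoblastoma gene Rb1 at 1.26, the nucleotide hydrolase Samhd1 at 1.08, Wdhd1 at least 2.03-fold and Ccnd3 at least 1.76-fold higher, and the polymerase delta subunit Pold4, which fell by 0.99. In the treatment responses 0 of the 40 passed. At an unadjusted p under 0.05, 7 were lower and 0 higher for amsacrine in WT cells, beside 10.8% and 8.85% of all genes, and 6 and 2 in p53-null cells, beside 9.91% and 7.32%. In Δ122p53 cells 1 was lower and 2 higher, beside 3.73% and 3.14%, and after irradiation 5 and 3, beside 6.61% and 7.3%. Ccnd1 stood at 9.16 on the WT control array and 6.95 on the WT amsacrine array, and at 6.10 and 6.84 on the Δ122p53 control and amsacrine arrays. In p53-null cells Ccnd1 stood at 9.45 and 9.38 on the controls, 6.26 after amsacrine and 8.08 after irradiation. Cyclin D1, Ccnd1, was thus lower after amsacrine, at -2.21 in WT and -3.15 in p53-null cells (limma, adjusted p = 0.0895 and 0.0557), and low on both Δ122p53 arrays. Pole3, a small polymerase epsilon subunit, differed by 0.99, 1.17 and, after irradiation, 1.42, and Cdca7 by 1.45 after irradiation. Ccnd2 differed by 2.10 after amsacrine in Δ122p53 cells (limma, adjusted p = 0.500).

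Lig1, Mcm6, Mcm7, Rpa2, Rrm2, Tk1 and Tyms had several detected probes, and the brightest stood for the gene. All probes of a gene had the same sign for 5 of these 7 genes in the WT amsacrine response, for 7 of 7 in the Δ122p53 response and for 4 of 7 between Δ122p53 and WT, where those of Lig1, Mcm7 and Rpa2 disagreed. The second Mcm7 probe differed by -2.02 after amsacrine in WT cells, against -0.25 for the brighter one. Between Δ122p53 and WT, the second Mcm6 probe differed by 1.19, against 0.23 for the brighter one. Agreement in sign was not counted for irradiation.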

How the data were processed

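RNA of 8 splenocyte samples was hybridised to 1-colour Illumina mouse beadchips. The authors deposited a non-normalized table of probe intensity values, per the file headers, with a detection p-value for each probe and array. The authors also deposited normalized values, treated here as log2 and made with lumi per the submitters' processing notes, with no version given; these served only as an alternative. Columns that matched no sample numbered 0.

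In R 4.3.3 with limma 3.58.1, intensities were background-corrected from the detection p-values and quantile normalized (neqc, offset 16). Probes were named through the platform table (20984 with 1 symbol, 1 with several, 3628 unnamed), and symbols were updated through Entrez identifiers (20968 matched). Probes with a detection p under 0.01 on at least 1 array were kept, and the probe with the highest mean stood for its gene, which left 7456 genes. The group model had 1 residual degree of freedom (prior 4.78, prior SD 0.292), so lone arrays were assumed to vary like the p53-null control pair. The additive model had 3 (prior 3.85, prior SD 0.293), which also hold differences in response between genotypes. Counts of genes higher in Δ122p53 are also given without the genes detected on Δ122p53 arrays alone, from the same fit, a choice made after seeing the data. P-values of 2-sided tests were adjusted over all genes by Benjamini and Hochberg's method, with a threshold of 0.05, and the fits were tested on simulated data. The number of arrays limits the precision.

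The members and lists were chosen with earlier results of these data known. Named genes were, in each treatment response and each additive comparison, the 3 members with the largest difference each way, those past the threshold first, the same for the list of other replication genes, and always Cdkn1a, Mdm2 and Phlda3. For genes outside the 40, differences are mostly given in place of values on each array, a departure from that rule. Alternatives covered background correction, normalization, the authors' values, detection filters, the rule for several probes, the variance prior, bounds and leaving out arrays. Promoters came from RefSeq (GRCm38.p6), and probe positions were not used here.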

Additional observations from a re-analysis of the deposited data

How the results depend on the processing

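No paired analysis was possible because the groups share only replicate number 1, and all but the p53-null controls hold 1 array. Of the medians of the 33 genes under the alternatives, 94 stayed within a set margin and 32 moved. That margin came from the median difference of the 33 genes between the p53-null controls, in which opposite differences cancel. It served every comparison, since no other group holds a replicate. A change of sign was counted only where the main median itself exceeded that margin, and 0 were counted. Medians nearer 0 could change sign uncounted. This was so for p53-null against WT, from -0.34 to 0.36, and for the shared amsacrine effect, from -0.39 to 0.12. Of the counts past the threshold 88 held and 25 moved. A count held where it was equal or changed little, which includes counts of 0 that stayed 0. That was so for every treatment response, every difference of responses and p53-null against WT. All counts that moved were for the shared amsacrine effect or for Δ122p53 against WT or p53-null. With undetected genes at their bounds the medians were -0.26 for amsacrine in WT, 0.36 for Δ122p53 against WT and 0.40 against p53-null. With the authors' values they were -0.24, 0.41 and 0.32, and 0.21 for irradiation against amsacrine, -0.15 for the WT minus p53-null response, and 0.74 and 0.58 for the Δ122p53 response minus WT and minus p53-null. With normexp and an offset of 50, irradiation against amsacrine gave 0.41 and the Δ122p53 minus WT response 1.07. With probes detected on every array (21 of the 33 genes), medians were -0.25 for amsacrine in WT, 0.20 for Δ122p53 against WT and 0.26 against p53-null, with 4 and 2 genes past the threshold. The authors' values left 5 and 2, and no detection filter 4 and 0. With 1 array left out, medians ran from -0.39 to 0.12 for the shared amsacrine effect, 0.33 to 1.06 for Δ122p53 against WT, 0.22 to 1.29 against p53-null, -0.34 to 0.36 for p53-null against WT, -0.40 to -0.052 for amsacrine and 0.0036 to 0.32 for irradiation in p53-null, -0.51 to -0.14 for the WT minus p53-null response and 0.75 to 1.26 for the Δ122p53 minus p53-null response. Counts then ran from 0 to 9 for the shared effect and from 0 to 14 for Δ122p53 against WT and against p53-null. Without both Δ122p53 arrays, chosen after seeing the data, the shared effect had a median of -0.39 and 9 genes past the threshold. Without a p53-null control the group model has no residual degree of freedom, so it gave values and no test.

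Signs turned for some single genes, mostly when 1 array was left out. The shared effect then ran from -0.084 to 1.04 for Mcm10, negative without either Δ122p53 array and also -0.084 without both, and from -0.067 to 2.38 for Phlda3, negative without either WT array. Δ122p53 against WT ran from -3.33 to 0.15 for Ccnd1 (positive without the Δ122p53 control), -0.84 to 0.96 for Cdkn1a (negative without either control) and -4.56 to 0.022 for Phlda3 (positive without the WT amsacrine array); Cdkn1a was also -0.074 with the authors' values and -0.13 with the mean of its probes. Against p53-null, Prim2 ran from -0.96 to 0.16 and Mdm2 from -1.09 to 0.018 (both positive without the Δ122p53 amsacrine array), Ccnd1 from -3.18 to 0.30 (positive without the Δ122p53 control) and Phlda3 from -1.15 to 0.60 (positive without 5 of the 7 arrays). For p53-null against WT, Prim2 ran from -0.079 to 0.71 and Rfc5 from -1.002 to 0.24 (turned without the WT control), and Mdm2 from -1.73 to 0.27 (turned without the WT amsacrine array). The cause was not tested.

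Over all genes, calls for Δ122p53 against WT fell from 1061 to 687 with the authors' values, 654 without a detection filter and 47 to 992 with 1 array left out, and against p53-null from 621 to 344, 398 and 71 to 622. The shared effect went from 154 to 42, 93 and 0 to 1265. Amsacrine in p53-null gave 10 calls, and 0 to 63 under the other settings. Genes near the detection floor, such as Mcm10, Cdc45, Ccne2 and Prim1, have no exact size.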
